A study of Mus musculus with 6 samples.

Results

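The AMPA and kainate receptor subunits are the 9 genes Gria1, Gria2, Gria3, Gria4, Grik1, Grik2, Grik3, Grik4 and Grik5, and they were followed in mouse cerebral cortex through every non-control array probe that the scanner files name after one of them. These are 20 probes for 9 genes, out of 41174 probes under 27962 array gene names. Total RNA came from 3 samples labelled Cux2 knock-out (genotype label Cux2-/-, samples 53, 48 and 54, called ko here) and from 3 samples titled wild type (samples 15, 62 and 16, called WT here). The genotype label of the WT samples reads Cux2+/-, which conflicts with their title and is not settled by the labels. All 6 samples are labelled male and brain, no treatment is labelled, and the age, strain and the part of Cux2 that was altered are not given in the sources used here. Each sample was hybridised to 1 one-colour Agilent array. The labels do not say that the samples of a group are separate animals, so the spread behind each p-value may be partly technical, and the small number of arrays limits the precision.

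AMPA and kainate receptors are ligand-gated cation channels that open when glutamate binds, and each is assembled from subunits that share a common fold. AMPA receptors, built from the Gria subunits, carry most fast excitatory transmission in the cortex, and their Gria2 subunit, once its transcript has been edited, makes the channel nearly impermeable to calcium. Kainate receptors are built from Grik1, Grik2 and Grik3, which can form channels on their own, and from Grik4 and Grik5, which need one of those partners and raise the affinity for kainate. They act on both sides of the synapse and on interneurons. Cux2, the gene altered in the ko samples, encodes a homeobox regulator of transcription that is made in the upper cortical layers.

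Signals are given as log2 of the processed spot signal relative to the 75th percentile of the same array, so that 0 is the brightness below which 75% of the probes of that array lie. The percentage of probes well above background, a flag set by the scanner software, ran from 58.5% to 68.1% on ko arrays and from 62.7% to 72.7% on WT arrays. Correlations of signal across probes ran from 0.991 to 0.994 within groups and from 0.988 to 0.991 between groups. The brighter Cux2 probe averaged -0.03 on ko arrays and 0.09 on WT arrays (limma, adjusted p = 0.838), and where it lies relative to the altered part of the gene is not given, so it checks nothing about the labels. All 5 markers of excitatory cortical neurons and all 7 of interneurons were well above background on all 6 arrays. Of the 3 liver genes listed as an absent control, Alb and Apoa1 were so on none. The other one, Ttr, was well above background on all 6 arrays, at 1.63 in ko and 1.45 in WT, so it did not behave as an absent control. By mean signal, 7 of 7 microglial, 5 of 5 astrocyte, 6 of 6 striatal and 6 of 7 interneuron markers were lower in ko than in WT cortex. By brightest probe, 8875 of all 17121 genes were lower. Of the 5 excitatory neuron markers, 4 were higher in ko and 1 lower. Their mean signal ran from 1.64 to 1.68 on ko arrays and from 1.57 to 1.59 on WT arrays. The oligodendrocyte markers were mixed, with 2 lower and 2 higher. The mean signal of the striatal markers ran from 0.29 to 0.47 on ko arrays and from 0.39 to 1.18 on WT arrays, and that of the microglial markers ran from 0.78 to 0.95 on ko arrays and from 1.23 to 1.46 on WT arrays. The mean signal of the interneuron markers ran from 2.25 to 2.37 on ko arrays and from 2.26 to 2.48 on WT arrays. What these shifts contribute to the subunit values was not tested. The causes of the shifts were not tested either. In whole tissue, fewer cells of a type and less RNA per cell cannot be told apart.

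The labels set ko against WT cortex, and that is the comparison made here. Of the 20 subunit probes, 18 were tested, for 8 of the 9 genes, after a filter that keeps probes well above background on all 3 arrays of a group. Of these 18, 0 passed an adjusted p of 0.05 in limma, against 0.129% of all 25504 tested probes, and 0 reached an unadjusted p under 0.05, against 7.96% of all. That 0 became 2 without WT 15, 2 without WT 16 and 1 without ko 53. The ko arrays lay wholly above or wholly below the WT arrays for 0 of the 18 probes, against 13.1% of all tested probes (6.45% wholly above and 6.62% wholly below). By the brightest probe of each gene, differences ran from -0.08 to 0.10 on the log2 scale, with a median of 0.02 over the 8 subunits and -0.01 over all 17121 genes.

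**Figure D1:**
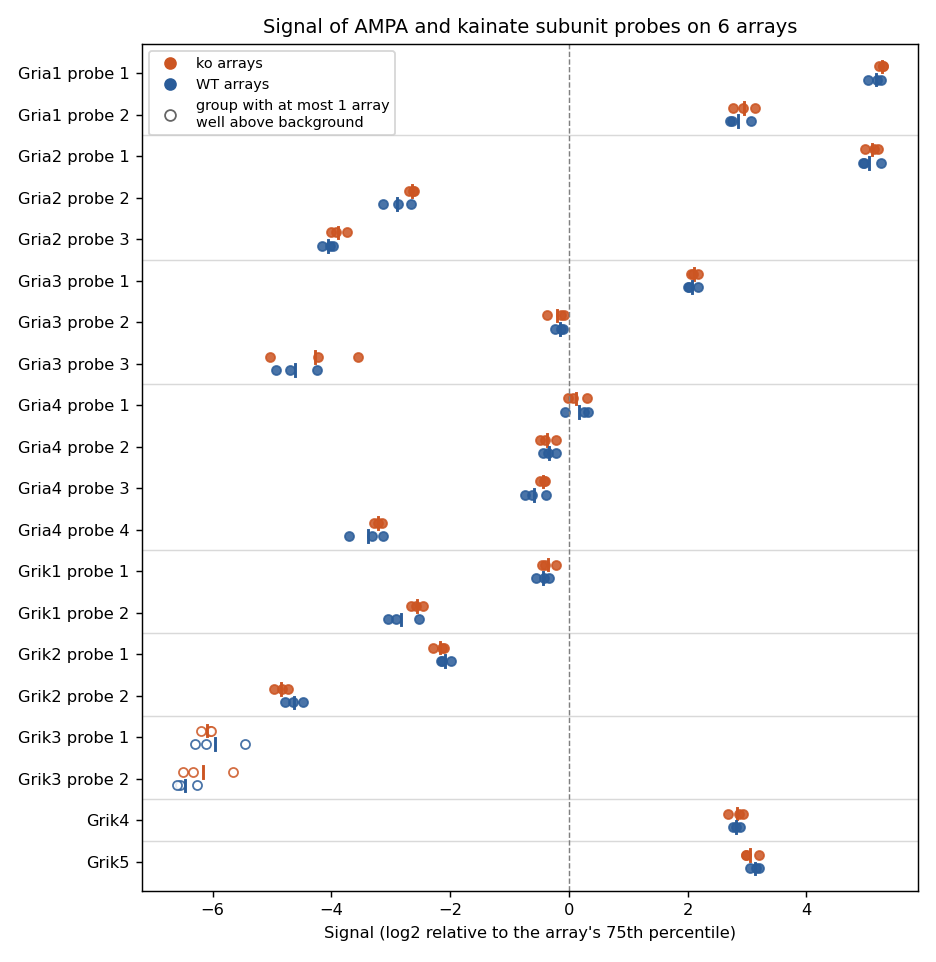
Signal of each of the 20 subunit probes on the 3 ko arrays (orange) and the 3 WT arrays (blue), on a log2 scale relative to the 75th percentile of the array (dashed line at 0); probes are numbered from the brightest within a gene, short bars are group means, and open circles mark a group with at most 1 array well above background. The points of the 2 groups overlap in every row with a tested probe, whereas probes of the same gene lie up to 9.11 log2 units apart, as for Gria2.

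Gria1, an AMPA subunit abundant in forebrain pyramidal neurons that is recruited to synapses during potentiation, is represented by 2 probes. Its brighter probe, A_52_P39575, read 5.23, 5.30 and 5.29 on ko arrays 53, 48 and 54, against 5.26, 5.19 and 5.05 on WT arrays 15, 62 and 16. The ko arrays were close together and the groups overlapped, because WT 15 was higher than ko 53. The means were 5.27 ± 0.04 in ko and 5.17 ± 0.11 in WT (SD, n = 3 each), a difference of 0.10 (95% interval -0.10 to 0.31, limma adjusted p = 0.838). The second probe, A_51_P498031, read 2.76, 2.93 and 3.13 in ko and 2.75, 2.72 and 3.07 in WT. Its difference was also 0.10 (interval -0.23 to 0.43, limma adjusted p = 0.924), and 1 array of each group, ko 54 and WT 16, stood above the rest.

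Gria2, the subunit that sets calcium permeability, is represented by 3 probes. The brightest, A_52_P575176, read 5.133, 4.997 and 5.202 in ko and 5.255, 4.964 and 4.956 in WT. WT 15 was the highest of the 6 arrays and the other WT arrays were the lowest, so the groups overlapped. The means were 5.11 ± 0.10 in ko and 5.06 ± 0.17 in WT (SD, n = 3 each), and the difference was 0.05 (interval -0.22 to 0.32, limma adjusted p = 0.953). The second probe, A_52_P891243, had the lowest p of all the subunit probes. It read -2.69, -2.62 and -2.60 in ko, against -2.66, -3.13 and -2.88 in WT, so that WT 15 alone lay among the ko arrays. Its difference was 0.25 (interval -0.06 to 0.56, limma unadjusted p = 0.0934, adjusted p = 0.710). It was 0.13 without WT 62 and 0.37 without WT 15 (limma, unadjusted p = 0.263 and 0.0137, adjusted p = 0.940 and 0.353). The dimmest Gria2 probe, A_52_P360995, averaged -3.89 ± 0.14 in ko and -4.05 ± 0.09 in WT (SD, n = 3 each) and differed by 0.17 (limma, adjusted p = 0.772). All 3 Gria2 differences were above 0 and none passed the threshold.

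Gria3, an AMPA subunit found mostly in receptors that also hold Gria2, also has 3 probes. The brightest, A_52_P68221, read 2.18, 2.10 and 2.06 in ko and 2.18, 2.03 and 2.01 in WT. The groups overlapped almost completely, and the difference of 0.04 had an interval of -0.16 to 0.24 (limma, adjusted p = 0.952). The second, A_52_P179309, averaged -0.19 ± 0.15 in ko and -0.15 ± 0.06 in WT (SD, n = 3 each), a difference of -0.04 (limma, adjusted p = 0.957). The dimmest, A_52_P272364, read -5.04, -3.55 and -4.22 in ko and -4.24, -4.92 and -4.69 in WT. It had the widest spread of the tested subunit probes: ko 48 was the highest and ko 53 the lowest of the 6 arrays. Its difference of 0.35 was the largest of the 18 and had the widest interval, -0.55 to 1.25 (limma, adjusted p = 0.890). The difference was -0.01 without ko 48 and 0.74 without ko 53 (limma, unadjusted p = 0.976 and 0.0371, adjusted p = 0.999 and 0.752).

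Gria4, an AMPA subunit enriched in fast-spiking interneurons and early in development, has 4 probes, and their differences lay on both sides of 0. The brightest, A_51_P501735, read 0.08, -0.01 and 0.30 in ko and -0.06, 0.25 and 0.32 in WT. The groups overlapped fully, and the difference was -0.05 (interval -0.37 to 0.27, limma adjusted p = 0.965). The next, A_52_P279527, averaged -0.36 ± 0.14 in ko and -0.33 ± 0.11 in WT (SD, n = 3 each), a difference of -0.03 (limma, adjusted p = 0.968). The third, A_52_P349182, read -0.40, -0.48 and -0.42 in ko, against -0.39, -0.74 and -0.62 in WT. Here too WT 15 lay with the ko arrays while the other WT arrays were lower, and the difference was 0.15 (limma, adjusted p = 0.818). It was 0.07 without WT 62 and 0.25 without WT 15 (limma, unadjusted p = 0.520 and 0.0270, adjusted p = 0.990 and 0.388). The dimmest, A_52_P153588, differed by 0.17 (interval -0.19 to 0.53, limma adjusted p = 0.856).

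Grik1, a kainate subunit expressed in many cortical interneurons, was read by 2 probes. The brighter, A_51_P282609, read -0.40, -0.21 and -0.44 in ko and -0.34, -0.55 and -0.42 in WT. ko 48 was the highest array and WT 62 the lowest, with the others mixed. The difference was 0.08 (interval -0.15 to 0.32, limma adjusted p = 0.902). The second probe, A_52_P660400, read -2.65, -2.57 and -2.46 in ko, against -2.92, -3.05 and -2.53 in WT. WT 16 lay among the ko arrays and the other WT arrays lay below them, and the difference was 0.27 (interval -0.08 to 0.62, limma adjusted p = 0.720). It was 0.16 without WT 62 and 0.42 without WT 16 (limma, unadjusted p = 0.307 and 0.00689, adjusted p = 0.953 and 0.412).

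Grik2, the kainate subunit of principal cells that is best known from hippocampal mossy fibre synapses, also has 2 probes. The brighter, A_52_P270135, read -2.28, -2.14 and -2.11 in ko and -2.14, -2.15 and -1.99 in WT. The difference was -0.08 (interval -0.30 to 0.13, limma adjusted p = 0.891). The groups overlapped, with ko 53 lowest and WT 16 highest. The dimmer, A_52_P655120, read -4.96, -4.74 and -4.83 in ko, against -4.47, -4.65 and -4.78 in WT, and it was well above background on 2 of 3 ko arrays and 3 of 3 WT arrays. It thus entered the test through WT alone, the group in which it was higher, so its sign is no support for a direction. Its difference was -0.21 (interval -0.47 to 0.06, limma adjusted p = 0.717), and -0.28 with the slide as a block (unadjusted p = 0.0231, adjusted p = 0.569 in limma). It was -0.13 without WT 15 and -0.28 without WT 16 (limma, unadjusted p = 0.265 and 0.0457, adjusted p = 0.670 and 0.659). One further probe, which the array names by the clone symbol C130030K03Rik and the reference table lists as a synonym of Grik2, is outside the rule. It averaged -1.70 in ko and -1.79 in WT, a difference of 0.08 (limma, adjusted p = 0.930), above 0 where the Grik2 probes were below.

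Grik3, a kainate subunit with low affinity for glutamate, was the 1 gene of the 9 with no tested probe. Its probe A_52_P60243 read -6.04, -6.03 and -6.19 in ko and -6.30, -6.11 and -5.45 in WT, and A_51_P258348 read -5.65, -6.51 and -6.33 in ko and -6.54, -6.59 and -6.26 in WT. Each probe was well above background on 0 of 3 ko arrays and on 1 of 3 WT arrays, WT 16, the array with the highest share of probes above background. No fold is given, and a difference in Grik3 was not detectable with these probes.

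Grik4 and Grik5, the high-affinity subunits, have 1 probe each. The Grik4 probe, A_51_P384994, read 2.94, 2.86 and 2.68 in ko and 2.76, 2.89 and 2.81 in WT. The 6 arrays were mixed and the means were 2.83 ± 0.13 in ko and 2.82 ± 0.07 in WT (SD, n = 3 each), a difference of 0.01 (interval -0.22 to 0.23, limma adjusted p = 0.995). The Grik5 probe, A_51_P428754, read 2.99, 2.99 and 3.20 in ko, against 3.06, 3.21 and 3.16 in WT. ko 53 and ko 48 were the lowest arrays and ko 54 was close to the highest, and the difference was -0.08 (interval -0.31 to 0.14, limma adjusted p = 0.8995). Because each has a single probe, no agreement between probes can be given for these genes.

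**Figure D2:**
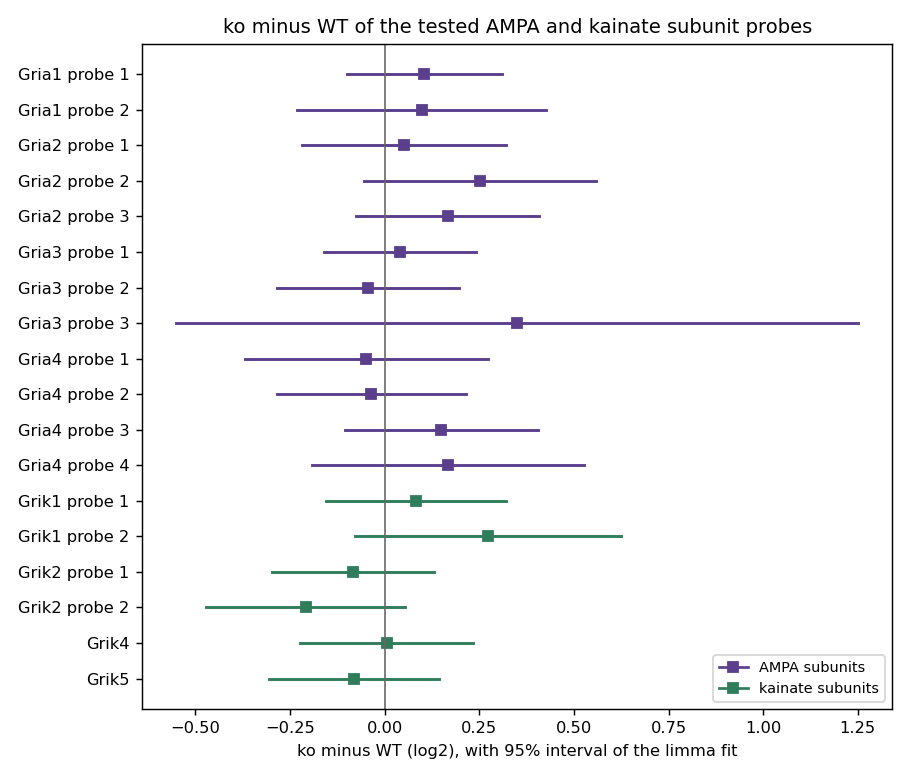
Difference between ko and WT (log2, ko minus WT) for the 18 tested subunit probes with the 95% interval of the limma fit, AMPA subunits in purple and kainate subunits in green. Every interval includes 0; the differences run from -0.21 for the dimmer Grik2 probe to 0.35 for the dimmest Gria3 probe.

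By family, the brightest probes of the 4 AMPA subunits gave 3 differences above and 1 below 0 (median 0.05), and those of the 4 tested kainate subunits gave 2 above and 2 below (median -0.04). The 95% intervals of these 8 probes reach at most 1.29-fold in either direction, the lower end for Gria4. For Gria1 the interval covers 0.933-fold to 1.24-fold, and for Gria2 it covers 0.860-fold to 1.25-fold. A p that misses the threshold does not show that a subunit is at the same level in both groups. These intervals, from 3 arrays a group, are not the smallest change that the adjusted test could have called. The balance of Gria1 to Gria2, as the log2 difference of their brightest probes on the same array, was 0.10, 0.30 and 0.09 on ko arrays 53, 48 and 54, against 0.01, 0.23 and 0.09 on WT arrays 15, 62 and 16. The ko values averaged 0.16 ± 0.12 and the WT values 0.11 ± 0.11 (SD, n = 3 each), and they overlapped.

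The brightest probes kept 1 order on all 6 arrays. From the brightest down, they were those of Gria1, Gria2, Grik5, Grik4, Gria3, Gria4, Grik1, Grik2 and Grik3. On the WT arrays the Gria1 probe stood between the 98.7 and 98.9 percentile of all probes, the Gria2 probe between 98.5 and 98.9, and the Grik5 probe between 93.7 and 94.3. Grik4 stood between 92.5 and 92.8, Gria3 between 88.6 and 89.6, and Gria4 between 74.6 and 77.3. The Gria1 and Gria2 probes overlapped across WT arrays, at 5.17 ± 0.11 and 5.06 ± 0.17 (SD, n = 3). Taken on the same array, Gria1 was above Gria2 by 0.01, 0.23 and 0.09 on WT 15, 62 and 16. For the other 7 pairs of neighbours, the lowest WT array of the brighter probe lay above the highest WT array of the dimmer one. This is an order of probe signals, which depend on the probe as well as on the transcript, and it is no order of transcript amounts.

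The order depends on which probe stands for a subunit, because the probes of one subunit lay far apart. For Gria2 the mean WT signals of its probes lay 9.11 log2 units apart, or 553-fold, and for Gria3 6.69 units, or 104-fold. The spans were 3.55 units for Gria4, 2.54 for Grik2, 2.39 for Grik1 and 2.32 for Gria1. For Gria2, Gria3, Gria4 and Grik2, the array assigns the dimmest probe to another transcript record than the other probes of the gene. Among the other probes, WT means ran from 5.06 to -2.89 for Gria2, from 2.07 to -0.15 for Gria3 and from 0.17 to -0.58 for Gria4. Whether all probes of a gene read the same transcript was not tested. Over 5911 array gene names with several tested probes, the median span over all arrays was 2.57 units, and only 0.711% spanned as much as Gria2 did. A span tends to widen with more probes, and these names were not matched to the 3 probes of Gria2. On the WT arrays the Gria2 probes stood at medians of the 98.7, 52.8 and 44.6 percentile of all probes.

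The differences between ko and WT spanned far less than the signals. Those of a subunit's probes lay 0.01 apart for Gria1, 0.13 for Grik2, 0.19 for Grik1, 0.20 for Gria2, 0.22 for Gria4 and 0.39 for Gria3. The median over the 5911 gene names was 0.12. Gria4 has 4 tested probes and Gria2 and Gria3 have 3, and the gene names were not matched for this number. In 4 of the 6 subunits with several tested probes, all probes shared a sign: above 0 for Gria1, Gria2 and Grik1, below 0 for Grik2, whose dimmer probe passed the filter through WT alone. Gria1, Grik1 and Grik2 have only 2 tested probes each, and all probes were read on the same 6 arrays. The share over the 5911 gene names was not computed, so this count is no result about the subunits. Whether probes of one gene differ in their response was tested with diffSplice of limma over all 14153 probes of such genes. Of the 16 subunit probes in it, 0 passed an adjusted p of 0.05, against 0.226% of all, and 0 reached an unadjusted p under 0.05, against 5.07% of all. Both probes of a gene with 2 tested probes get the same p, as for Gria1, Grik1 and Grik2, so the 16 are not separate tests. The lowest unadjusted p was 0.287, for the dimmest Gria3 probe (adjusted p = 0.9998).

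The larger differences came from dim probes. With all tested probes split by brightness into 3 bins of equal size, 7 of the 18 subunit probes fall in the dim bin, and 5 of these had a difference above 0, with a median of 0.17. Over all 8502 probes of that bin the median was 0.02 and 54.4% were above 0. The 6 subunit probes in the bright bin had differences between -0.08 and 0.10, with a median of 0.05, against -0.02 over all 8501 bright probes. Of these 6, 5 were above 0 and 1 below, and 43.9% of all bright probes were above 0. In the middle bin, 2 of 5 subunit probes were above 0 and 3 below, with a median of -0.03, against 0.01 over all probes of that bin. The median size of a difference, without its sign, was 0.21 for the dim subunit probes and 0.07 for the bright ones, against 0.15 and 0.07 for all dim and all bright probes.

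The arrays lie on 2 slides, with 2 ko arrays and 1 WT array on slide 1 and 1 ko array and 2 WT arrays on slide 2. With the slide as a block, the differences of the 8 brightest probes ran from -0.10 for Grik2 to 0.07 for Gria1, and none passed (limma, adjusted p from 0.912 to 0.998). Within slides, the signs were opposite for 5 of the 8. Gria4 stood at 0.20 within slide 1 and -0.21 within slide 2, Gria2 at -0.16 and 0.17, and Grik2 at 0.01 and -0.21. The sign was above 0 on both slides for Gria1 (0.03 and 0.11), Grik1 (0.01 and 0.08) and Grik4 (0.01 and 0.09). WT 15 is the single WT array of slide 1, so what sets it apart for the Gria2 and Gria4 probes above and what slide 1 does to WT samples cannot be told apart.

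AMPA and kainate receptors work with auxiliary subunits, anchoring proteins, clustering factors and the enzymes that edit their transcripts, and these partners were read from a list of 48 genes. Probes were found under the names used here for 45 of them, and 44 were tested by their brightest probe. Of these 44, 0 passed in limma over all tested probes, against 0.128% of all genes. An unadjusted p under 0.05 was reached by 4 genes, all higher in ko, which is 4 of 44 against 8.27% of all genes in either direction (3.89% higher and 4.38% lower in ko). Of these 4, Nptx2 alone was still under 0.05 without ko 53 or with normexp background correction. The groups did not overlap for 7 of 44, 5 higher and 2 lower, against 13.6% of all genes (6.38% higher and 7.21% lower). Differences were above 0 in 26 and below 0 in 18, with a median of 0.03, against -0.01 over all genes.

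**Figure D3:**
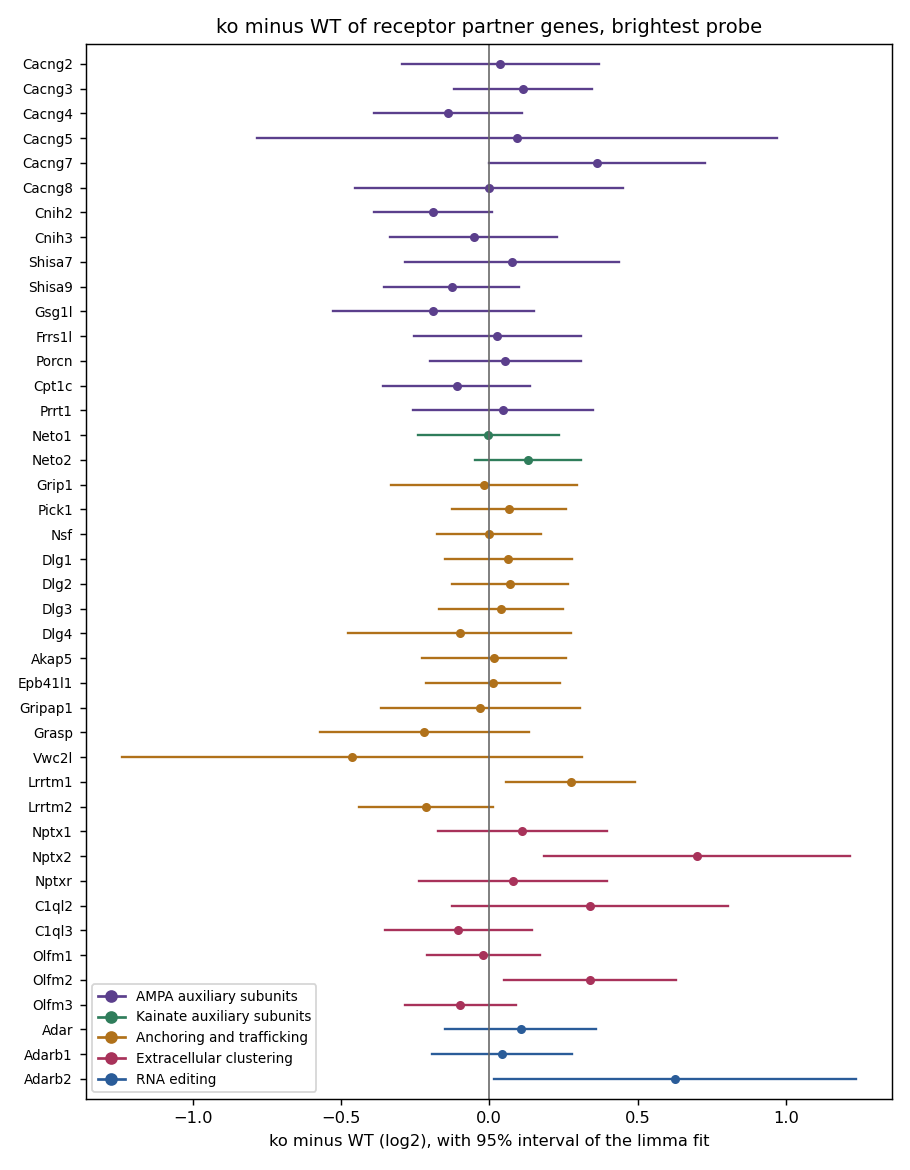
Difference between ko and WT (log2, ko minus WT) for the tested partner genes of 5 groups, brightest probe of each, with the 95% interval of the limma fit and colours by group of partners. Intervals leave out 0 for Nptx2, Lrrtm1, Olfm2 and Adarb2, none of which passed the adjusted threshold.

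Among the 15 tested genes listed as AMPA auxiliary subunits, 8 were above 0 and 7 below, with a median of 0.03. The lowest p values were those of Cacng7, a transmembrane AMPA receptor regulatory protein, at 0.36 (limma, adjusted p = 0.626), and of Cnih2, a cornichon homologue, at -0.19 (limma, adjusted p = 0.644). Cnih2 read 5.12, 5.23 and 5.17 in ko, against 5.44, 5.40 and 5.26 in WT, with every ko array below every WT array. Of the kainate auxiliary subunits, Neto2 read 1.32, 1.35 and 1.34 in ko, against 1.21, 1.27 and 1.14 in WT, and its difference was 0.13 (limma, adjusted p = 0.741). Neto1 stood at -0.00 (limma, adjusted p = 0.998).

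Of 14 tested anchoring and trafficking genes, 8 were above 0 and 6 below, with a median of 0.01. Lrrtm1 and Lrrtm2 are postsynaptic adhesion proteins that bind neurexins and hold AMPA receptors at the synapse, and they pointed in opposite directions. Lrrtm1 read -0.30, -0.52 and -0.39 in ko, against -0.77, -0.64 and -0.63 in WT, a difference of 0.27 (limma, unadjusted p = 0.0208, adjusted p = 0.520). Lrrtm2 differed by -0.21 (limma, adjusted p = 0.644), and its groups overlapped.

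The 8 tested extracellular clustering proteins had a median of 0.10, with 5 above 0 and 3 below. Nptx2, a neuronal pentraxin that is secreted and gathers AMPA receptors, read 0.90, 0.66 and 0.85 in ko, against -0.40, 0.27 and 0.42 in WT. All ko arrays were above all WT arrays, and WT 15 was far below the rest. The difference was 0.70 (interval 0.19 to 1.22, limma unadjusted p = 0.0151, adjusted p = 0.494), and 0.45 without WT 15 (adjusted p = 0.300). Olfm2, an olfactomedin-domain secreted protein, averaged -1.82 in ko and -2.16 in WT, a difference of 0.34 (limma, unadjusted p = 0.0282, adjusted p = 0.564). WT 15 was again the lowest array, and the difference was 0.22 without it. A second Olfm2 probe stood at 0.32 (limma, adjusted p = 0.699).

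**Figure D4:**
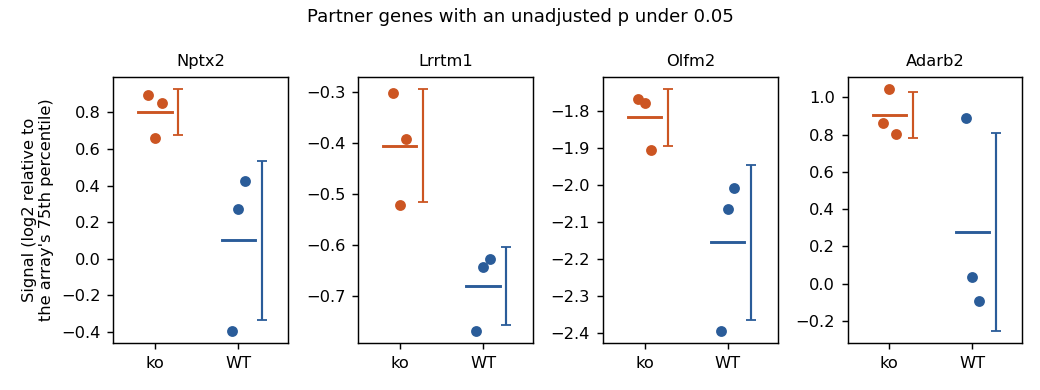
Signal of the 4 partner genes with an unadjusted p under 0.05, on the 3 ko arrays (left) and the 3 WT arrays (right) in each panel, on a log2 scale relative to the array's 75th percentile; horizontal bars are means and vertical bars are SD (n = 3), and the axes differ between panels. The groups are apart for Nptx2, Lrrtm1 and Olfm2 and overlap for Adarb2.

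The 3 members of the RNA editing family were all above 0 by their brightest probe, although the further probes of each were below 0. Adarb1, named after its values were seen because it is the enzyme that edits the Gria2 transcript at the pore site, differed by 0.04 (interval -0.19 to 0.28, limma adjusted p = 0.954), and Adar by 0.11 (limma, adjusted p = 0.878). The further probe of Adar stood at -0.19, and those of Adarb1 at -0.12 and -0.01. Adarb2, a brain-specific relative without known editing activity, read 0.86, 1.04 and 0.80 in ko, against 0.89, 0.04 and -0.09 in WT, a difference of 0.63 (limma, unadjusted p = 0.0459, adjusted p = 0.617). WT 15 lay among the ko arrays, and without it the difference was 0.93 (adjusted p = 0.113). It was 0.46 with the slide as a block (unadjusted p = 0.0697), 0.51 without WT 62 and 0.44 without WT 16 (limma, unadjusted p = 0.134 and 0.146). A second Adarb2 probe, which is dimmer, went the other way, at -4.09 in ko and -2.97 in WT (limma, unadjusted p = 0.00786, adjusted p = 0.397). The Adarb2 probes therefore gave opposite signs for 1 gene.

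The genes whose signal most resembled that of a subunit over the 6 arrays were sought for the AMPA and the kainate subunit of lowest p by brightest probe, Gria1 and Grik2. For Gria1 these were Chml, Dhrs7b and Mrpl18, with Pearson's r of 0.993, 0.991 and 0.991. For Grik2 they were Cacfd1, Stab1 and Nek4, with r of 0.995, 0.994 and 0.987. Among 16016 genes compared, r was at least 0.9 with Gria1 in 1.99% and with Grik2 in 0.468%. The 6 points share the array scaling and both groups, and the values are a description.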

How the data were processed

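RNA of 3 ko and 3 WT samples of cortex was read on 1 array per sample. The scans were read by Agilent Feature Extraction 9.1.3.1, per the file headers. Its deposited processed signal is a spot intensity after background subtraction and spatial detrending on the same array, with no scaling across arrays. A second deposited table holds log2 values with one common distribution for all columns (median 6.75). By comparison with each array's processed signal these are quantile-normalized log2 values, and any centring beyond that is unknown. The sources used here name no genome build, so no coordinates are printed.

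Of 45018 spots per array, 1639 control spots and 120 spot values with an outlier flag over all arrays were left out. No subunit spot was flagged, saturated or given a surrogate value. Log2 intensities were averaged over spots of a probe, and the 75th percentile of the array was subtracted. Tested probes (25504 of 41174) passed the scanner's background flag on every array of ko, of WT, or of both. The filter reads the group labels, which favours probes that are bright in a single group. Tests were lmFit, eBayes and diffSplice of limma 3.58.1 (R 4.3.3), with Benjamini-Hochberg adjustment over the whole table at 0.05 and 95% intervals. The procedure was tested on simulated data. Partner genes were named through RefSeq accessions, symbols or synonyms of the assembly GRCm38.p6 (22951, 6659 and 3109 probes; 8455 kept the array's name), and the brightest probe stood for a gene. Named partners are the 2 of lowest p in each group, with Adarb1 added after its values were seen, and the values of 1 small group of partners, which enter the counts, are not reported here. Alternatives changed scaling, background correction, filter, variance model, array weights, slide, source of values, probe summary and the arrays used. Members, lists and tests were chosen with earlier results of these data known. Figures were drawn with matplotlib 3.10.9.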

Additional observations from a re-analysis of the deposited data

How the results depend on the processing

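No subunit probe and no partner gene passed the threshold in limma under any of the 16 alternative settings, nor did a subunit probe pass diffSplice. The lowest adjusted p of a subunit probe was 0.353, without WT 15. At an unadjusted p under 0.05, where the report has 0 subunit probes, there was 1 without scaling, with array weights, with the slide as a block and without ko 53, and there were 2 without WT 15 and without WT 16. The count of partners under 0.05, which was 4 and all higher in ko, became 1 with normexp and 7 without scaling. It became 2 without the filter, without ko 53 and without ko 48. The genes were not always among the 4: without ko 53 they were Nptx2 and C1ql2. With the array median there were 3 higher and 2 lower, and without WT 15 there were 4 higher and 2 lower. There was 1 lower with a variance trend in eBayes, with array weights, with the slide as a block, without ko 54 and without WT 16. Beside it, 5, 5, 3, 2 and 3 were higher in these settings. Of 136 differences of the 8 tested subunits under the alternatives, 121 kept their sign and 15 did not, all of them differences whose interval includes 0. Without scaling, which moved the median of all probes by 0.17, Grik5 stood at 0.094, Gria4 at 0.13 and Grik2 at 0.092. With the array median Grik4 stood at -0.032. With normexp on the undetrended mean signal, Gria2 stood at -0.033, Grik4 at -0.054, Gria3 at -0.056 and Grik2 at 0.15. The mean of all its probes gave 0.058 for Gria4. Leaving out 1 array gave -0.052 to 0.078 for Grik4 and -0.16 to 0.024 for Gria4. The 33 called probes of the whole array became 0 with normexp (149 at an unadjusted p under 0.05), 2 without a filter on dim probes, 15 with the slide as a block and 2 to 60 as single arrays were left out (60 without ko 53, 12 without ko 54, 7 without WT 15, 2 without WT 16). The 32 diffSplice calls became 20 without scaling, 0 with normexp (43 at an unadjusted p under 0.05), 51 with array weights and 18 to 42 as single arrays were left out (18 without ko 54). The causes were not tested. No paired analysis was possible because no replicate number is shared between the groups. Signal over background limits Grik3 and the dim probes of Gria3 and Grik2.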
